A study of Mus musculus with 22 samples.

Results

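The 60 loci described here were selected on the values themselves, as the named loci that were most clearly higher in mutant than in control Purkinje cells (PCs) in both ribosome-bound comparisons, without rapamycin and with it. The difference between the mean log2(value + 1) of mutants and controls is called A without rapamycin and B with rapamycin, and each locus was ranked by the smaller of A and B. Of 66494 loci, 1832 carry a gene symbol in the lists that the study published, 801 of these reached a mean of 3 or more on that scale over the 12 ribosome-bound libraries, and the 60 with the highest minimum were taken. A and B are therefore given below as descriptions, with no test. Apart from its list of RNA exosome genes, the published lists used here hold genes that the study itself found changed. A total of 58 of the 60 symbols came from its list of changed translational efficiency, which sets the ribosome-bound change against the change in sorted cells, 23 from its list of changed ribosome binding, and 1 each from its list of changes in sorted cells and its list of RNA exosome genes, some of them from more than 1 list.

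Tsc1 encodes a subunit of the complex that restrains the kinase mTOR, and in PCs, the output neurons of the cerebellar cortex, its loss leaves mTOR signalling high. Rapamycin inhibits mTOR complex 1, which promotes cap-dependent translation, ribosome production and mitochondrial function. In translating ribosome affinity purification (TRAP), ribosomes carrying a GFP tag are pulled down from tissue and the RNA bound to them is sequenced.

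TRAP was done on cerebellum of Tsc1 fl/fl (mutant) and Tsc1 +/+ (control) mice, both carrying L7Cre and Rosa26fsTRAP. Cre driven by the L7 (Pcp2) promoter switched on RPL10A-EGFP in PCs and, in mutants, removed Tsc1. By the methods the Rosa26fsTRAP line, and the L7GFP line of the sorted cells, were on a C57BL/6J background. These lines were bred with Tsc1 fl/+ L7Cre animals, whose background is not stated. There were 3 libraries per genotype without rapamycin and 3 per genotype with it, each from 1 animal by the methods. Total RNA came from PCs sorted for GFP from the cerebellum of Tsc1 fl/fl and Tsc1 +/+ mice, with 5 libraries per genotype. By the methods both genotypes carried L7Cre and L7GFP, while the paper's results name L7Cre for the mutants only. The methods give the age of these mice as either P21 or P42. The labels name the genotypes only as CC and WW, and mutant and control follow the paper's use of these names. The labels give neither the age of each library nor the dose or schedule of rapamycin, and the sorted control libraries 144a and 144b share an animal number, so that part of that group's spread may be technical. A locus for Tsc1 was not analysed here, so the genotype could not be checked on the deleted gene.

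Many mRNAs whose translation depends on mTOR start with a C followed by a run of pyrimidines, the 5′ terminal oligopyrimidine (TOP) element. A RefSeq promoter sequence (GRCm38.p6) was matched by symbol for 53 of the 60 members, and each was searched on its own strand, from 5 bases before to 5 bases after the annotated start, for a C followed by at least 4 more C or T. Such a stretch was present in 5 of the 53 members (9.43%), in 96 of 526 other eligible loci (18.3%) and in 4989 of all 27025 promoters (18.5%). The 5 windows are shown because they are the members in which such a stretch begins within 5 bases of the annotated start. Each runs from 10 bases before to 20 bases from the start, with the stretch found by the search in capitals.
Tomm70a: ggcttccggtgaCCTCTggcccttttctgt
Kif2a: gagccctcccaCTCTTCCCCCgcgccgcct
Dek: ggcgcCTTCCCgctctgcttcccgaaccgc
Terf2ip: tgcctCTTCCgggaaagagggcgggccctc
Cdc42se2: cgcttgtggctccgCCTCTgcgcgccagag
The windows lie at chr16:57121704-57121733 (plus strand), chr13:107022336-107022365 (minus strand), chr13:47106202-47106231 (minus strand), chr8:112011349-112011378 (plus strand) and chr11:54787684-54787713 (minus strand). The longest stretch, 10 bases in Kif2a (a microtubule-depolymerizing kinesin), begins 1 base after the first transcribed base of the annotation. That of Terf2ip lies wholly before this base, and that of Cdc42se2 begins 4 bases after it. In Terf2ip and Dek the capitals start at the edge of the search and leave out pyrimidines directly before them. The match is a property of the annotated letters and does not show where transcripts start in PCs.

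The 22 libraries differed widely in depth. The unit of the values is a size-factor-scaled fragment signal, and undoing the scaling gave 2.47 M to 6.38 M fragments (M for mega) per TRAP library and 43.3 M to 86.3 M per sorted library. The median member rested on 11.3 to 26.0 fragments in 10 of the 12 TRAP libraries, on 113 fragments in mutant 3 without rapamycin and on 0 in rapamycin-treated control 1, against 1441 to 3135 fragments in sorted PCs, so that TRAP values of single members are imprecise. Mutant 3 without rapamycin also stood apart in its total value, 0.861 M against 3.01 M to 5.84 M in the other TRAP libraries. Without it the median A of the members described below was 1.27, and 56 of the 60 were chosen again. The values of each set of markers were summed in each library and given as log2(sum + 1), so that the most abundant markers weigh most. For the 25 Purkinje cell markers, Pcp2 and Calb1 among them, this was 13.7 to 14.2 in every TRAP library. None of the 25 was at 0 in all libraries of a group. The 8 astroglial markers summed to 8.82 to 9.12 in mutants without rapamycin and to 6.92 to 7.88 in their controls, and the 14 microglial and immune markers to 5.83 to 6.66 and 0.64 to 3.69, with 7 of the 14 at 0 in all 3 untreated controls. With rapamycin the astroglial sums were 7.02 to 7.81 in mutants and 6.82 to 7.54 in controls, and the microglial sums 2.68 to 4.41 and 4.22 to 5.91. The 2 oligodendrocyte markers summed to at most 3.30 in any TRAP library, and the 11 vascular markers to 5.0 to 5.81 in mutants and 1.69 to 4.73 in controls without rapamycin. None of these markers is a member, and their part in A was not tested. All were located through the study's lists of changed genes, so the sums are not an unselected measure of cell types. In such bulk samples fewer cells of a type and less RNA per cell cannot be told apart.

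Across the 60 members the median of A was 1.22 and the median of B was 1.44, against 0.30 and 0.21 over the 741 other eligible loci and 0.04 and 0.27 over all 6922 loci with a mean of at least 3. Since both differences chose the members, these medians only say how far the selection reached. In the 57 members not listed at 0 in untreated controls, the smaller of the pair ran from 1.89 in Rtel1 down to 0.84 in Ankrd45, Slc25a39 and Snx5, the last 3 inside, and was 0.83 in Ppard, Mkl2 and Exoc6b, the first 3 outside, so that no gap separates members from their neighbours. All 3 mutants lay above all 3 controls in 53 of the 60 members without rapamycin (8.67% of all 6922 loci did) and in 14 with rapamycin (7.48% of all loci). In 13 members the genotypes were separate in both (1.04% of all loci), namely E030025P04Rik, Terf2ip, Gcsh, Akirin1, Ptprn, Tmed8, Pitrm1, Dctn3, Arhgap20, Tpm1, Cdc42se2, Psma3 and Srxn1. Of the 741 other eligible loci the same held in 276 without rapamycin, in 63 with it and in 28 in both. Nothing is read from these counts, because the same differences made the choice. Members were mostly low in TRAP. Of the eligible loci with a mean of 3 to 4, 32 of 152 were members, of those from 4 to 5, 18 of 180, of those from 5 to 6, 5 of 171, and of those at 6 or more, 5 of 298.

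**Figure D1:**
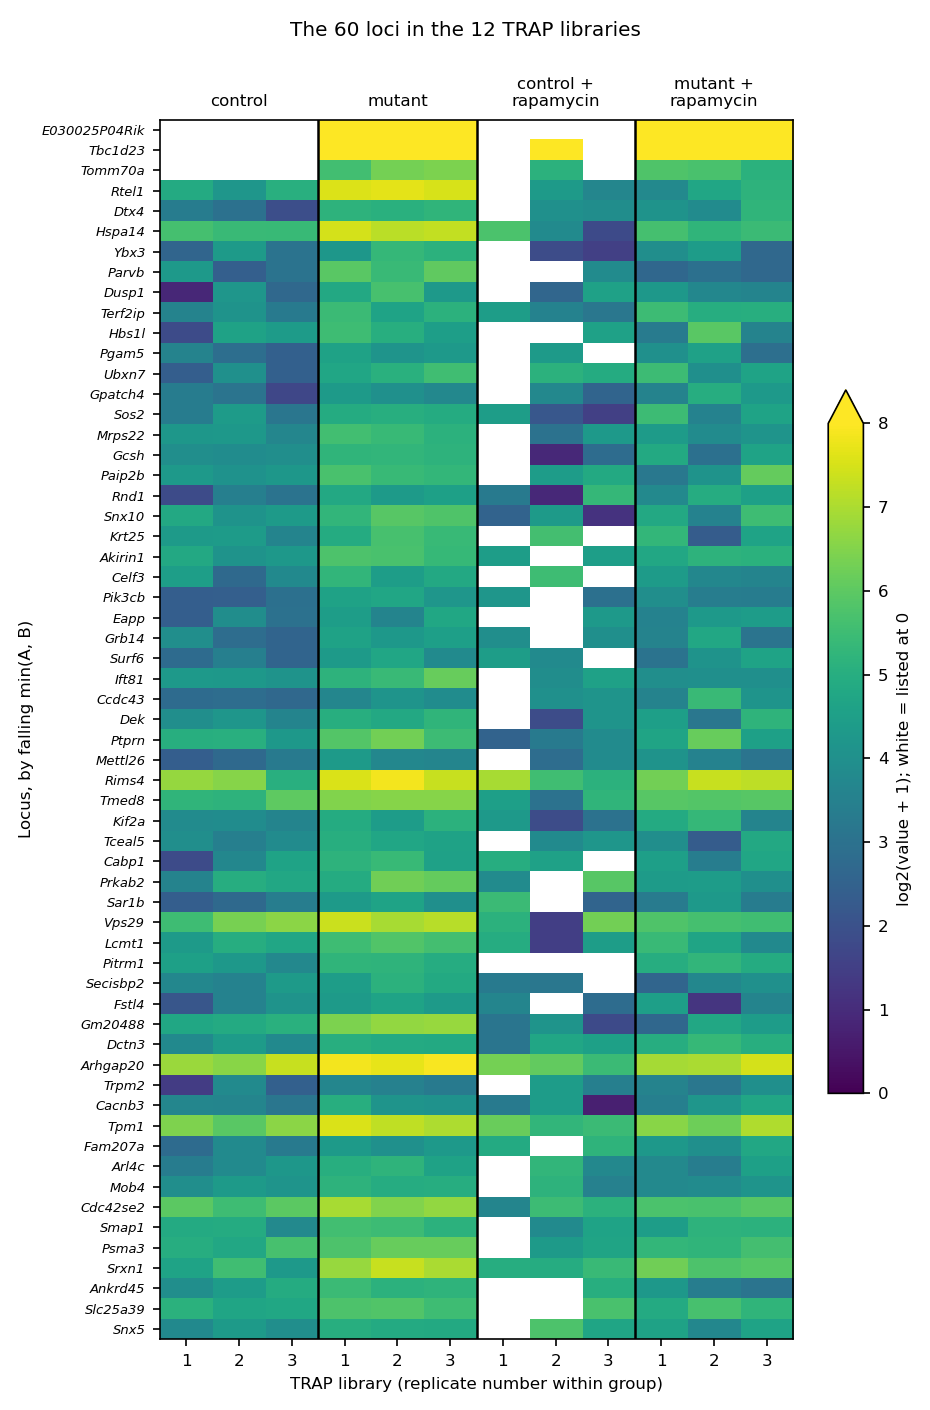
Log2(value + 1) of the 60 loci (rows, by falling minimum of A and B) in the 12 TRAP libraries (columns, 3 per group), where white marks a locus listed at 0 and colours above 8 are saturated. White cells lie mostly in the rapamycin-treated controls, with 32 in library 1, and no mutant library has one.

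**Figure D2:**
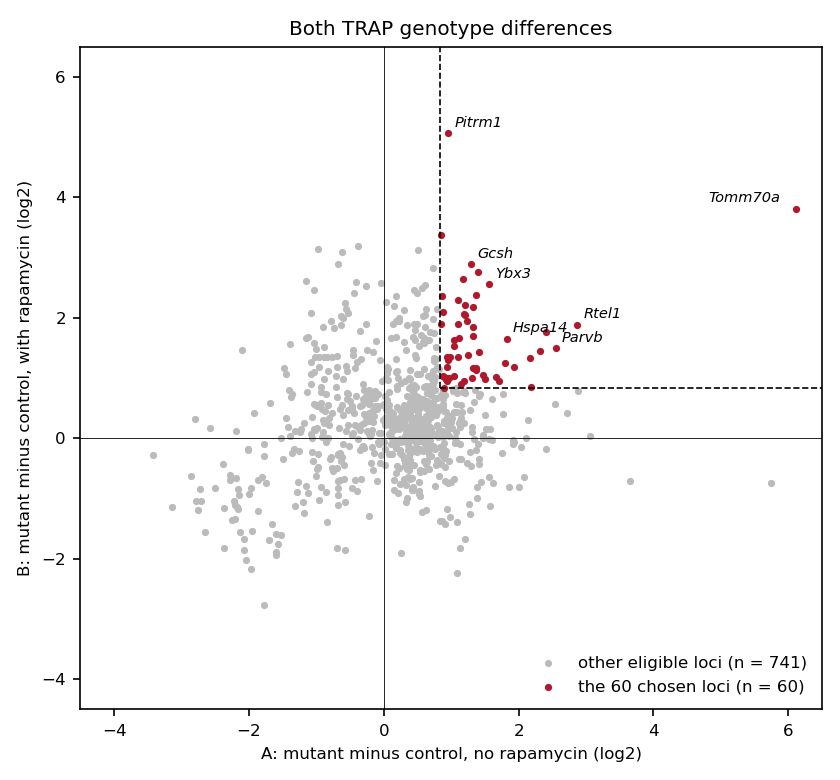
A (mutant minus control without rapamycin) against B (the same with rapamycin), both in log2 units, for the 60 loci in red and the 741 other eligible loci in grey, with dashed lines at the limit of 0.84 that chose the loci. E030025P04Rik and Tbc1d23 lie beyond the axes.

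The 3 loci at the top of the ranking were listed at 0 in untreated controls, so no fold change is given for them. At the locus named E030025P04Rik, which lies on the strand opposite to that gene (chromosome 11, 109139291 to 109144369, minus strand, GRCm38) and is singled out here after its values were seen, log2(value + 1) was 0 in all 6 control libraries. It was 20.02, 19.89 and 14.60 in mutants without rapamycin and 19.70, 19.91 and 20.16 with it, and took 2.89% to 21.7% of all signal in the mutant libraries. In sorted PCs both genotypes had it at a high level, 16.86, 15.46, 15.93, 16.95 and 16.68 in mutants and 17.97, 16.10, 15.96, 17.32 and 18.04 in controls, which overlap. The locus named Tbc1d23, for a protein that tethers endosome-derived vesicles at the Golgi, only overlaps exons of that gene (chromosome 16, 57168862 to 57231504, minus strand). Its value was 0 in all 3 untreated controls and in rapamycin-treated controls 1 and 3, but 18.79 in rapamycin-treated control 2. In mutants it was 18.77, 18.49 and 15.48 without rapamycin and 18.35, 18.68 and 18.83 with it.

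Tomm70a, an import receptor of the mitochondrial outer membrane, is the neighbour of Tbc1d23, 12157 bases away on the other strand (chromosome 16, 57121703 to 57156705, plus strand), and its zeros fell in the same libraries. It was listed at 0 in all untreated controls and in rapamycin-treated controls 1 and 3, and at 5.15 in rapamycin-treated control 2. The mutants had 5.59, 6.34 and 6.41 without and 5.79, 5.71 and 5.10 with rapamycin. A further locus that carries the Tbc1d23 symbol, not eligible because of its low mean, was at 0 in all 6 controls and at 2.68 to 4.50 in the 6 mutants. Tomm70a was detected in every sorted library, at 12.31, 12.81, 12.72, 12.48 and 12.58 in mutants and 12.33, 12.63, 12.49, 13.04 and 12.75 in controls. Its sorted difference was -0.07 (standard error 0.17), and the genotypes overlapped. A value of 0 in these files can also be a failed estimate, which was not tested here.

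Mitochondrial proteins gave 6 members among the 28 listed genes that reached a mean of 3 in TRAP (called measured here), beside 60 of all 801 eligible loci. Besides Tomm70a they are Pitrm1, Mrps22, Gcsh, Pgam5 and Slc25a39. Gcsh, the lipoylated carrier protein of the glycine cleavage system, had 3.95, 3.89 and 3.95 in controls and 5.24, 5.26 and 5.18 in mutants without rapamycin, groups that lie 1.30 apart with little spread. With rapamycin its controls were at 0, 0.91 and 2.84 and its mutants at 4.85, 2.95 and 4.64, again without overlap. Mrps22, of the small subunit of the mitochondrial ribosome, had 4.24, 4.26 and 3.67 in controls and 5.59, 5.38 and 5.15 in mutants (A = 1.32). Under rapamycin its mutants (4.38, 3.86 and 4.14) overlapped with 1 control, since the controls were 0, 3.01 and 4.28. Pitrm1, a peptidase of the mitochondrial matrix that clears presequences, was at 4.53, 4.26 and 3.73 in controls and 5.22, 5.21 and 4.95 in mutants, but was listed at 0 in all 3 rapamycin-treated controls, with 4.99, 5.28 and 4.93 in the mutants beside them. Pgam5, a phosphatase of mitochondria that is also on the apoptosis list, and Slc25a39, a carrier that brings glutathione into mitochondria, were each at 0 in 2 of 3 rapamycin-treated controls. Their A was 1.37 and 0.84. Over all 28 measured genes of the list the median A was 0.72 and the median B 0.68.

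Members that act on the genome included the helicase Rtel1, which unwinds telomere and replication structures, and Terf2ip (Rap1), of the shelterin complex at telomeres, the 2 members among 8 measured genes of DNA repair, replication and cell cycle. Rtel1 (chromosome 2, 181319739 to 181356616, plus strand) had the largest A of the members not listed at 0 in untreated controls, 2.87. Its controls were at 4.90, 4.21 and 5.03 and its mutants at 7.58, 7.69 and 7.50. With rapamycin its mutants were at 3.77, 4.73 and 5.17, overlapping with the untreated controls, and its controls at 0, 4.35 and 3.67. Without the control at 0, B of Rtel1 was 0.55 in place of 1.89. Terf2ip showed the same size of difference in both comparisons, 1.41 and 1.44, with controls at 3.59, 4.11 and 3.31 and mutants at 5.46, 4.65 and 5.14 without rapamycin. With it the controls were at 4.46, 3.54 and 3.17 and the mutants at 5.47, 5.0 and 5.02. It had no library at 0, and its genotypes were separate in both comparisons.

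Of mTOR signalling and the translation machinery, 4 of 24 measured genes were members. Paip2b, an inhibitor of the poly(A)-binding protein and so of translation, was at 4.33, 4.07 and 4.23 in controls and 5.70, 5.39 and 5.30 in mutants (A = 1.25). With rapamycin its mutants spread from 3.21 to 6.12 around 2 controls at 4.41 and 4.87, and B without the control at 0 was -0.17, so that its B rests on that library. Pik3cb, a catalytic subunit of phosphoinositide 3-kinase upstream of mTOR, was at 2.39, 2.43 and 2.94 in controls and 4.62, 4.73 and 4.22 in mutants (A = 1.93, B = 1.18). With rapamycin its controls were at 4.19, 0 and 2.96 and its mutants at 3.95, 3.38 and 3.35, so that 1 control lay above every mutant. Prkab2, a regulatory subunit of the energy sensor AMPK, had an A of 1.30 with overlapping groups. The locus of Secisbp2, which binds selenoprotein mRNAs, only overlaps exons of that gene and had an A of 0.95. Over the whole list the median A was 0.52 and the median B 0.18. Hbs1l, a GTPase that rescues stalled ribosomes and the 1 member among 12 measured genes of the RNA exosome and 3′ decay, had an A of 1.40 but was at 0 in rapamycin-treated controls 1 and 2.

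Chaperone and stress genes gave 3 members of 15 measured. Hspa14, an Hsp70-family chaperone at the ribosome, had tight groups without rapamycin, 5.63, 5.43 and 5.38 in controls and 7.47, 7.17 and 7.25 in mutants (A = 1.82). With rapamycin its mutants were close to the untreated controls, at 5.64, 5.22 and 5.44, and its controls spread over 5.72, 3.83 and 1.79, so that the genotypes overlapped and B (1.65) came from controls 2 and 3. Srxn1, which reduces overoxidized peroxiredoxins, was at 4.64, 5.55 and 4.32 in controls and 6.76, 7.32 and 6.99 in mutants, an A of 2.19 with no overlap, and its B of 0.85 also had none. Dusp1, an immediate early phosphatase of MAP kinases, was at 0.89, 4.21 and 2.72 in controls, with library 1 the lowest, and at 4.83, 5.66 and 4.29 in mutants. Its B was 1.45, and 0.24 without rapamycin-treated control 1. The measured genes of the whole stress list had a median A of 0.84 and a median B of 0.30.

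Membrane trafficking gave 5 members of 31 measured, Tbc1d23 among them. Vps29, a retromer subunit, had controls at 5.53, 6.36 and 6.60 and mutants at 7.35, 6.94 and 7.15 (A = 0.98). With rapamycin its controls were at 5.15, 1.47 and 6.31 and its mutants at 5.79, 5.63 and 5.54. These groups overlapped, and the positive B (1.35) rests on control 2. Sar1b, a GTPase that starts COPII coats, had an A of 1.5 and a B of 0.99, with 1 rapamycin-treated control at 5.46, above every mutant of that comparison, and another at 0. The sorting nexins Snx10 and Snx5 had an A of 1.23 and 0.90. B of Snx5 was -0.91 without rapamycin-treated control 1, the lowest such value of any member, and B of Snx10 was 1.87. Psma3, an alpha subunit of the proteasome core, was the 1 member of 36 measured proteasome and ubiquitin genes (A = 0.86, B = 2.36), and Ift81, of intraflagellar transport, the 1 of 5 measured cilia genes (A = 1.37, B = 1.14). Without rapamycin-treated control 1, which was at 0 for both, B was 0.86 in Psma3 and -0.27 in Ift81.

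Of 29 measured synapse and ion channel genes 2 were members, beside 60 of all 801 eligible loci. Cacnb3, a beta subunit of voltage-gated calcium channels, and Trpm2, a cation channel opened by ADP-ribose, both had an A of 0.93, and the Trpm2 groups overlapped. B of Trpm2 was 0.96, and -0.35 without rapamycin-treated control 1. No member came from the 25 Purkinje cell markers, all of them measured, whose median A was -0.23 and median B 0.25, nor from the astroglial (4 measured, median A 1.74, median B 0.20), vascular (1 measured) or cytokine and interferon (1 measured) lists, and no oligodendrocyte or microglial marker reached the mean of 3. Of neuronal members that stand on no list, Rims4, of the RIM family at presynaptic active zones, was among the highest members in TRAP, with 6.74, 6.55 and 5.03 in controls and 7.53, 7.87 and 7.33 in mutants (A = 1.47). Ptprn, a protein of dense-core vesicles, was separate in both comparisons, with 5.02, 5.04 and 4.28 against 5.86, 6.28 and 5.49 without and 2.53, 3.30 and 3.86 against 4.68, 6.15 and 4.53 with rapamycin. Cabp1, a neuronal calcium-binding protein, had an A of 1.66 but controls that overlapped with the mutants (1.83, 3.69 and 4.64 against 5.18, 5.38 and 4.57).

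Among other members high in the ranking, Dtx4, an E3 ubiquitin ligase of the Deltex family, was at 3.37, 2.98 and 1.92 in controls and 5.18, 5.09 and 5.24 in mutants (A = 2.41). Parvb, a parvin that links integrins to actin, was at 4.30, 2.43 and 3.04 and 5.95, 5.43 and 6.04 (A = 2.55). Ybx3, a cold-shock RNA-binding protein, had overlapping groups without rapamycin, 2.61, 4.35 and 3.04 against 4.22, 5.33 and 5.14, and separate ones with it, 0, 1.87 and 1.51 against 3.95, 4.41 and 2.71. Ubxn7, a cofactor of the segregase p97, and Gpatch4, a nucleolar protein, had an A of 2.17 and 1.32, and Sos2, a Ras exchange factor, of 1.32. B of Ubxn7 was -0.34 without rapamycin-treated control 1.

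The other 22 members stand on no list and had an A from 0.87 to 1.80 and a B from 0.90 to 2.64. Of proteins of the cytoskeleton and its motors they include Tpm1 (a tropomyosin), Kif2a, Dctn3 (a dynactin subunit) and the keratin Krt25. Tpm1 was separate in both comparisons, with 6.44, 5.97 and 6.62 in controls and 7.55, 7.24 and 7.02 in mutants without rapamycin, and 6.17, 5.25 and 5.46 against 6.57, 6.23 and 7.04 with it. Small GTPases and their regulators were Rnd1, Arl4c, Arhgap20 (a GTPase-activating protein) and Smap1 (an Arf GTPase-activating protein). Arhgap20 was among the members with the highest TRAP values, 6.79, 6.59 and 7.32 in controls against 7.87, 7.70 and 7.93 in mutants, and 6.31, 6.09 and 5.46 against 6.93, 7.0 and 7.48 with rapamycin. In the nucleus act Dek (a chromatin protein), Surf6 (in the nucleolus), Eapp, Akirin1 and the splicing regulator Celf3, of which Akirin1 was separate in both comparisons although rapamycin-treated control 2 was at 0. Signalling is served by Grb14, an adaptor at the insulin receptor, Lcmt1, a methyltransferase of protein phosphatase 2A, and Mob4. The remaining members were Tmed8, Fstl4, Tceal5, Ccdc43, Mettl26 and Fam207a. Of these Tmed8 had tight groups, 6.48, 6.54 and 6.54 in untreated and 5.92, 5.85 and 5.91 in treated mutants, each above all controls of its comparison.

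Zeros were concentrated in the rapamycin-treated controls. A value under 0.01 was counted as 0, since 1 fragment was worth at least 0.303. In rapamycin-treated controls 1, 2 and 3, 32, 14 and 10 members were at 0, which is 53.3%, 23.3% and 16.7% of the members, against 11.3%, 4.59% and 1.35% of the 741 other eligible loci. Each untreated control had 3 members at 0 (E030025P04Rik, Tbc1d23 and Tomm70a), and no mutant library had any. At least 1 rapamycin-treated control was at 0 in 42 members (70.0%) and in 120 of the others (16.2%). A locus at 0 there gains a large B, so the rule favours such loci. The 18 members with no rapamycin-treated control at 0 had a median A of 1.07 and a median B of 1.29, and the other 42 had 1.27 and 1.68. Without rapamycin-treated control 1, the median B of the 32 members at 0 in it went from 1.98 to 0.85. That of the other 28 went from 1.18 to 1.75. B stayed above 0 in 52 of the 60 members (all but Ubxn7, Paip2b, Ift81, Tceal5, Trpm2, Arl4c, Mob4 and Snx5). This count covers the omission of control 1 only. Among others, Fam207a, Prkab2, Sar1b, Fstl4 and Grb14 were at 0 in rapamycin-treated control 2, and Cabp1 and Surf6 in rapamycin-treated control 3. In each of them the remaining treated controls had a higher mean than the treated mutants, so the positive B also rests on 1 library. The same held for Vps29 and Lcmt1 without rapamycin-treated control 2, which was low in both (1.47) but not at 0. Whichever 1 of the 12 libraries was left out, 42 or more of the 60 were chosen again.

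**Figure D3:**
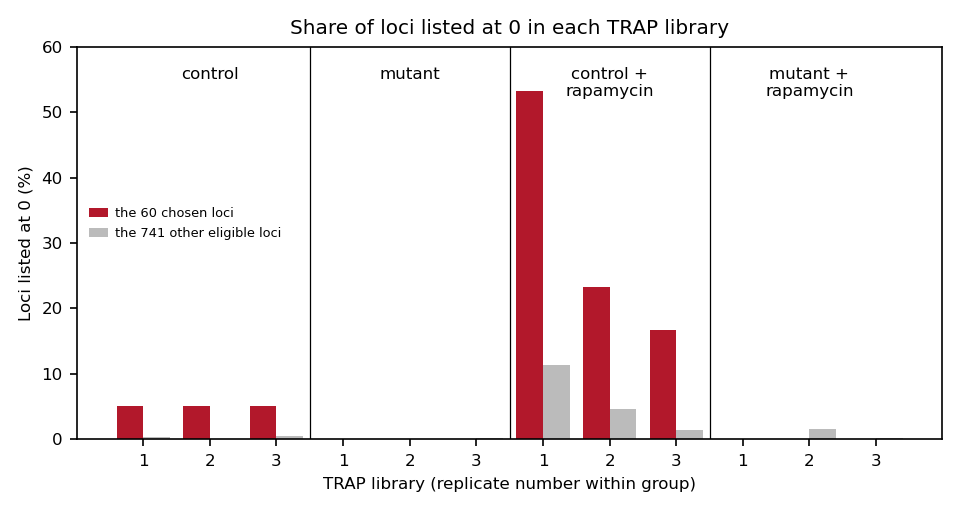
Share of loci listed at 0 (%) in each TRAP library, for the 60 loci in red and the 741 other eligible loci in grey. The bars of the rapamycin-treated controls reach 53.3% of the 60 loci, while all 6 mutant libraries have 0% of them.

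The members' values with and without rapamycin were set side by side over both genotypes, with genotype as a term, in a limma fit of all 6922 loci. The 12 libraries of this fit are those whose values chose the members, and high untreated mutants or low rapamycin-treated controls raise A or B and lower the rapamycin difference together. The counts and differences below are therefore a description of the members, not a test apart from the rule, and nothing is read from their excess over all loci. A call is an unadjusted p under 0.01 with a fold change above 2, the thresholds of the study. By this rule 8 of 60 members (13.3%) were called, all of them lower with rapamycin, against 1.3% of all 6922 loci in either direction and 0.953% in the lower direction. None was called higher, as 0.347% of all loci were. After Benjamini-Hochberg adjustment over all loci the smallest limma p of a member was 0.572, and no locus passed 0.05. An unadjusted p under 0.05 was found for 18 members, and for 8.58% of all loci. The median rapamycin difference of the members was -0.97, against -0.22 for the other eligible loci and -0.16 for all loci. In mutants alone it was -0.71 (52 of 60 lower) and in controls -1.08 (50 of 60 lower), with -0.17 and -0.26 for the other eligible loci. Members spread most in rapamycin-treated controls (median SD 2.29, against 0.44 in untreated controls, 0.24 in untreated mutants and 0.54 in rapamycin-treated mutants).

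The 8 called members were Rtel1, Parvb, Gm20488, Pitrm1, Gcsh, Hspa14, Ybx3 and Cdc42se2, and 5 of them had a rapamycin-treated control at 0. The 3 without a control at 0 were Hspa14, Gm20488 and Cdc42se2. The non-coding transcript Gm20488 had 6.42, 6.71 and 6.77 in untreated and 2.68, 4.80 and 4.41 in treated mutants, and 4.78, 4.90 and 5.08 in untreated and 3.11, 4.15 and 1.79 in treated controls. Its difference with rapamycin was -2.28 (standard error 0.46), and in both genotypes all treated libraries lay below all untreated ones. Cdc42se2, a small effector of Cdc42, was lower with rapamycin by less, -1.0 (standard error 0.32). Its mutants went from 6.94, 6.49 and 6.71 to 5.74, 5.71 and 5.91, again without overlap. Hspa14 differed by -1.78 (standard error 0.51). Rtel1 had the largest difference, -2.54 (standard error 0.64), and its treated mutants all lay below its untreated ones. Without 1 of the 12 libraries several of these calls ended. Gcsh lost its call without rapamycin-treated mutant 2, Ybx3 without rapamycin-treated mutant 3, and Hspa14 in 3 of the 12 fits (without control 1, mutant 1 or rapamycin-treated mutant 2). Pitrm1 lost it in the 6 fits without 1 control of either treatment, and Cdc42se2, close to both thresholds, in 10 of the 12, all but those without rapamycin-treated control 2 or 3.

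Parvb had -2.50 (standard error 0.63), with treated mutants at 2.68, 2.95 and 2.71, below every untreated mutant, and rapamycin-treated controls at 0, 0 and 3.86. In Pitrm1 the treated mutants (4.99, 5.28 and 4.93) overlapped with the untreated ones. In 24 members all 3 treated mutants lay below all 3 untreated mutants (9.72% of all loci did), and in 9 members all 3 treated controls lay below all 3 untreated controls (7.53% of all loci). Tbc1d23 and E030025P04Rik had higher means with rapamycin in mutants, and untreated mutant 3 was the lowest mutant library of both. Terf2ip (0.07, standard error 0.30) and Dctn3 (0.17, standard error 0.31) had values close to 0 in the same fit. Of the functional lists, 2 of 28 mitochondrial genes (Gcsh and Pitrm1), 1 of 15 stress genes (Hspa14) and 1 of 8 DNA repair genes (Rtel1) were called lower and none higher, while 1 of 24 genes of mTOR signalling and translation and 1 of 12 of the exosome and 3′ decay were called higher and none lower. The remaining lists had no call in this fit, among them apoptosis (4 genes), cilia (5), trafficking (31), proteasome (36), synapse and channels (29) and Purkinje cell markers (25).

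**Figure D4:**
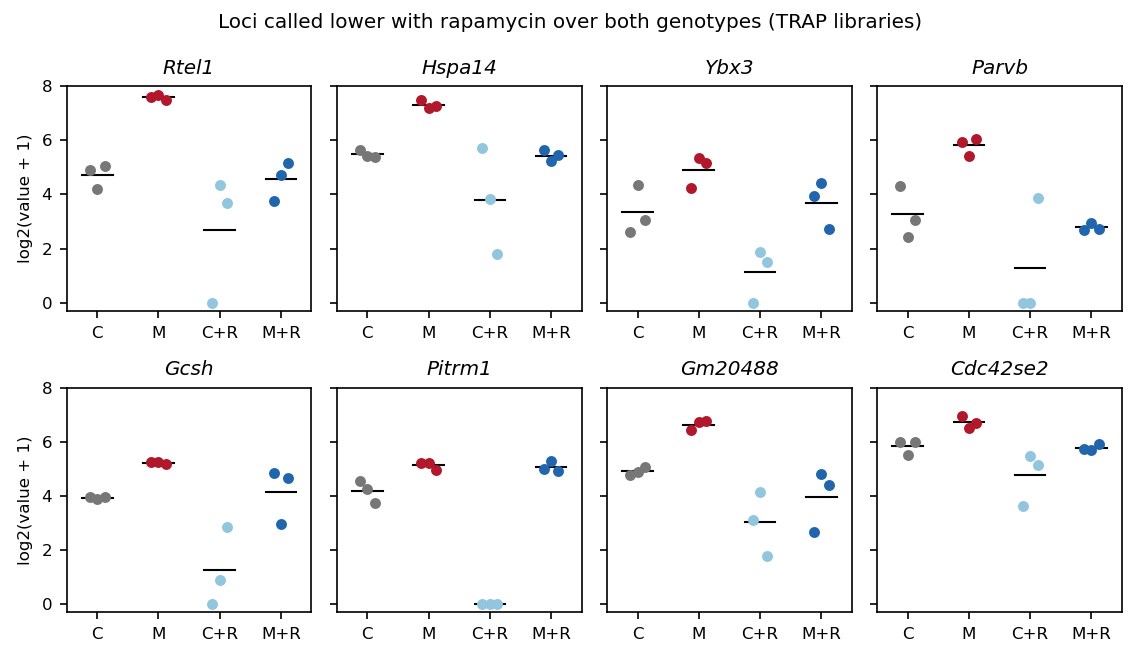
Log2(value + 1) in each TRAP library of the 8 loci called lower with rapamycin (C, control; M, mutant; R, rapamycin; points, libraries; lines, means of 3). Untreated mutants (M) have the highest mean in every panel, and 5 panels have a rapamycin-treated control at 0.

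Total RNA of sorted PCs gave a different picture of the same loci. All 60 passed the filter of a mean of at least 5 over the 10 sorted libraries. In the limma fit of 16455 loci 1 of the 60 (1.67%) was called, against 1.47% of all loci. That member was lower in mutants (1.08% of all loci were). Of the 686 other eligible loci that passed the filter 92 were called. Of all 741 other eligible loci 80 are on the study's own list of changes in sorted cells, against 1 of the 60. No member was called higher (0.395% of all loci). The median sorted difference, mutant minus control, was -0.23 over the members, with 44 of 60 below 0, 0.03 over all loci and -0.44 over the 686 other eligible loci that passed. The smallest adjusted limma p of any member was 0.394, and 8 members had an unadjusted p under 0.05 (11.3% of all loci did), 1 of them higher in mutants. Most symbols come from the list of changed translational efficiency, which sets the TRAP change against the sorted change and holds changes in both directions. Among loci raised in TRAP, such a list favours those whose sorted change is below the TRAP change. A negative sorted difference is therefore partly built into the selection and is not independent evidence of its direction. Among the Purkinje cell markers 11 of 24 tested were called lower in sorted mutants (median -2.30). The log2 of their summed values was 18.4 to 19.6 in mutants and 19.5 to 20.3 in controls. Of 8 astroglial markers 3 were called higher (median 0.58). These markers were located only through the study's lists of changed genes. Itpr1, Homer3, Slc1a6, Tnc and Sox2, among others, are on its list of changes in these same sorted cells. Such calls are therefore partly built in and are not independent evidence about cell types. The markers' part in the members' sorted differences was not tested.

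The sorted differences also moved with a code beside the date in the labels' library names, called the library code here, whose meaning the labels do not give. Of its 3 values 1 holds only mutants, 1 only controls, and 1 both genotypes, with 2 mutants (167 and 191) and 2 controls (144a and 176), so that a fit with library code as a term rests on these 4 libraries. With library code as a term, or within that code alone, the members' median was 0.051, 27 of 60 were below 0 and no member was called, while the median over all loci was -0.02 in either. In the fit without the term 6 members were more than 1 lower on the log2 scale in mutants.

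**Figure D5:**
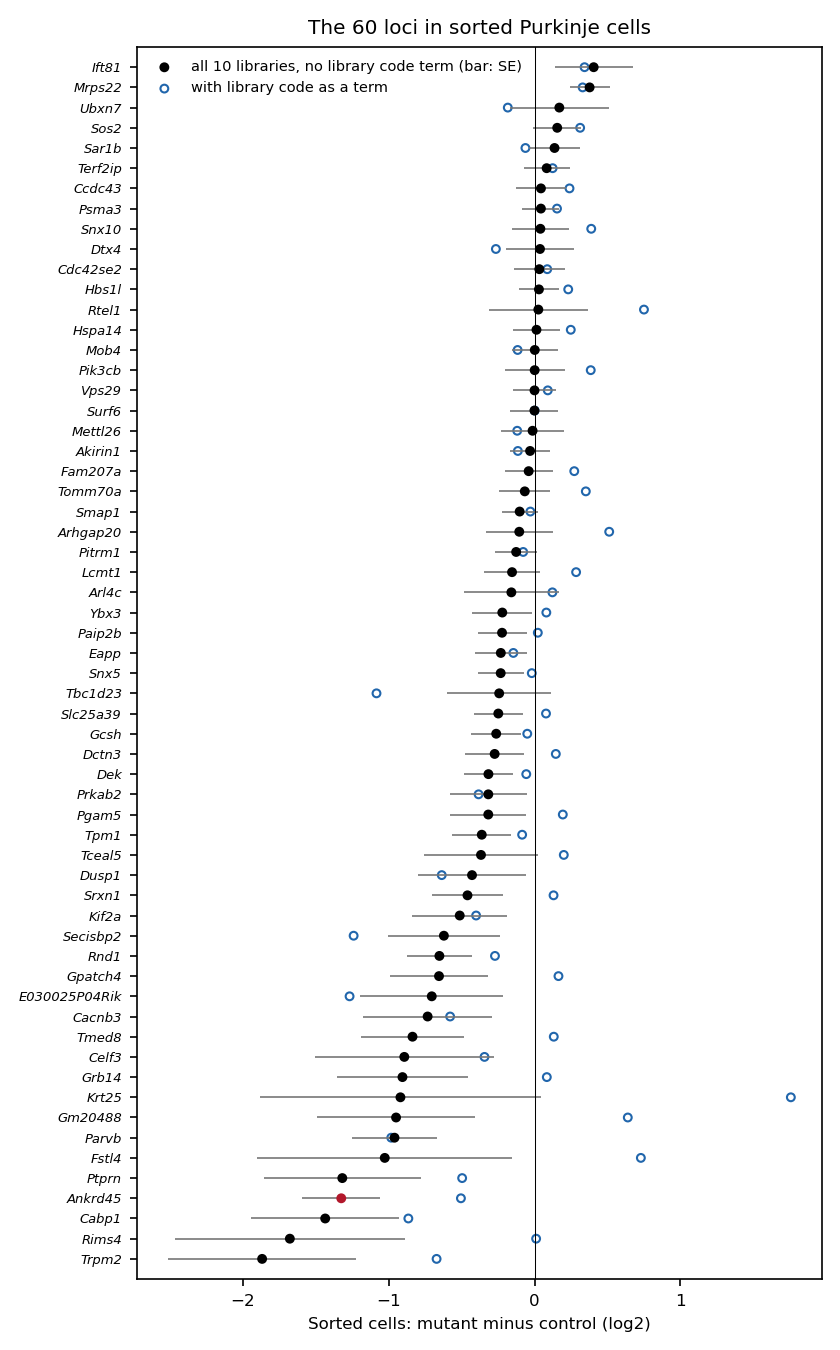
Sorted-cell difference, mutant minus control in log2 units, of the 60 loci with its standard error (filled points, 5 libraries per genotype; red, Ankrd45, the 1 called locus) and with library code as a term (open circles). Most filled points lie within 0.5 of 0, while the open circles scatter around 0.

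The largest sorted decrease was in Trpm2, with 5.86, 9.50, 8.64, 7.17 and 8.5 in mutants and 10.07, 9.26, 9.4, 10.89 and 9.39 in controls. It was -1.87 (standard error 0.65, limma adjusted p = 0.394), and mutant 167 lay above 3 of the controls. Ankrd45, an ankyrin-repeat protein and the only called member, had 8.01, 9.26, 9.14, 8.19 and 8.52 in mutants and 9.63, 10.09, 9.78, 10.18 and 10.07 in controls. These groups do not overlap (1.39% of all loci lie wholly lower in mutants), and the difference was -1.33 (standard error 0.27, limma adjusted p = 0.394). It is also the 1 member that the study listed as changed in these same sorted libraries. Each of the 10 fits without 1 sorted library called it, and with library code as a term it was -0.51 and not called. Rims4 (-1.68), Cabp1 (-1.44) and Ptprn (-1.32) also had low sorted values in mutants without passing the thresholds, and in all 3 of them mutant 103 was the lowest library. With library code as a term Trpm2 was -0.67, Rims4 0.01, Cabp1 -0.87 and Ptprn -0.50. Parvb had -0.96, just short of the fold threshold (limma adjusted p = 0.394) and -0.98 with library code as a term. It was called in 3 of the 10 fits without 1 library (mutant 103, mutant 74 or control 176), Trpm2 without mutant 167 and Cabp1 without control 144b.

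In the fit of all 10 libraries without library code, no member was more than 0.5 higher in sorted mutants. With library code as a term 5 members were, Krt25 (1.76), Rtel1 (0.75), Fstl4 (0.73), Gm20488 (0.64) and Arhgap20 (0.51), and none of them was called. Mrps22 was the 1 member with all 5 mutants (10.01, 9.83, 10.08, 10.05 and 9.86) above all 5 controls (9.73, 9.77, 9.52, 9.4 and 9.52), as 0.766% of all loci were. Its difference was 0.38 (standard error 0.14, limma adjusted p = 0.402), below the fold threshold, and 0.33 with library code as a term. Ift81 had 0.41, Ubxn7 0.17, Sos2 0.16 and Sar1b 0.14 without the term, none past the thresholds, and 0.34, -0.18, 0.31 and -0.06 with it. Of members with a large A, Rtel1 had a sorted difference of 0.03 (standard error 0.34), Hspa14 of 0.01 (standard error 0.16) and Dtx4 of 0.04 (standard error 0.23) without the term. With it they had 0.75 (standard error 0.42), 0.25 (standard error 0.24) and -0.27 (standard error 0.36). For Hspa14 the sorted libraries lay at 11.39, 11.72, 11.65, 11.60 and 11.39 in mutants and 11.57, 11.53, 11.30, 11.90 and 11.39 in controls, which overlap fully. By list, and without library code, the sorted difference of the 6 mitochondrial members ran from -0.32 to 0.38, of the 5 trafficking members from -0.24 to 0.14, of the 4 members of mTOR signalling and translation from -0.62 to 0, of the 3 stress members from -0.46 to 0.01 and of the 2 synapse and channel members from -1.87 to -0.73. The whole lists had medians of -0.10, -0.17, -0.32, -0.44 and -1.52 in the same fit. Of the mitochondrial list 1 of 37 genes was called lower, of trafficking none of 40, of mTOR signalling and translation 3 of 29 lower, of stress 3 of 25 lower and 1 higher, and of synapse and channels 15 of 37 lower and 2 higher. The listed genes, too, were located only through the study's published lists, so these counts are partly built in.

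Properties that the rule did not use are given as descriptions. Of the 60, 59 are annotated as protein-coding and 1, Gm20488, as a processed transcript. In 57 the locus matches the annotated gene fully (35) or shares a splice junction with it (22), in Tbc1d23 and Secisbp2 it only overlaps exons, and in E030025P04Rik it lies on the opposite strand. Over members with an annotated coding sequence (53), the median 5′ untranslated region was 122 bases and the coding sequence 978, against 200 and 1290 over 615 other eligible loci. The interquartile ranges overlapped (66 to 198 against 103 to 343 bases for the 5′ region). The median transcript was 2407 bases with 49.0% G and C in the members and 2926 bases with 52.5% in the others. Promoter medians were close, with 24 CG dinucleotides in 300 bases for both and 62.0% against 63.7% G and C. Gene length enters estimated fragments, and the TRAP level classes and the members called high in TRAP above were not corrected for it.

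By position, 16 members lay within 1 Mb of another member, in 8 pairs. The same count was not made for the other eligible loci, so nothing is read from it. The closest were Tomm70a and Tbc1d23 on chromosome 16 (12157 bases apart) and Cacnb3 and Rnd1 on chromosome 15 (18892 bases). Vps29 and Ift81 on chromosome 5 were 185220 bases apart, Slc25a39 and Ccdc43 on chromosome 11 276740, and Mrps22 and Pik3cb on chromosome 9 434994. Zeros in the same libraries were seen in the Tomm70a and Tbc1d23 pair, but not only there. Sar1b and Fstl4, on chromosome 11, shared their only zero, in rapamycin-treated control 2. Mettl26 and Dusp1, on chromosome 17, shared theirs in rapamycin-treated control 1, where Slc25a39 and Ccdc43 were also both at 0. These are the treated controls with the most members at 0, 32 in control 1 and 14 in control 2. Cacnb3 and Rnd1 had no library at 0.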

How the data were processed

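The deposited tables hold, for each assembled locus and library, a fragment signal that the authors estimated with Cufflinks and scaled by a size factor per library, after trimming with Trimmomatic 0.39 and mapping to GRCm38 with STAR 2.7.0f (Cufflinks 2.2.1). The assembly came from the sorted cells and was used for the TRAP libraries too. The signal is neither whole counts nor per length, so a count test was not used. Symbols were taken for 1832 loci from the study's published lists, whose values were not used. The members and gene lists were chosen with earlier results of these data known.

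Values were put on a log2(value + 1) scale, a pseudocount of 1, on which fold changes of low loci are understated. Tests used limma 3.58.1 in R 4.3.3 with Benjamini-Hochberg adjustment over all loci with a mean of at least 3 (TRAP, rapamycin against none, genotype as a term) or 5 (sorted, mutant against control). A call needed p under 0.01 before adjustment together with more than a 2-fold change. P-values measure the spread between these libraries. The limma fits and the choice of members were tested on simulated data, and the other steps were not.

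The genes described were, by rule, the 15 highest-ranked members whose locus matches the gene or shares a junction with it, the 5 largest sorted increases and decreases, all called members, all members on a list, and the 3 loci on either side of the limit. Other members are named by function. Promoters came from RefSeq (GRCm38.p6), lengths from GENCODE vM21, and Python 3.11.15 and matplotlib 3.10.9 made the summaries. Alternatives were other pseudocounts, scalings and filters, an intensity trend, the library code (a number in the labels whose meaning is not given) as a term, a replicate block and the omission of each library.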

Additional observations from a re-analysis of the deposited data

Results flagged for a closer look

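In 5 of 74 groups of 5 sorted libraries (37 described genes in each genotype), 1 library lay far from the other 4 by Dixon's criterion, which chance alone meets in about 1 group in 20. Cabp1 was at 6.91 in mutant 103, where the next lowest mutant had 8.70, and Ptprn was at 7.49 in the same library, with 9.20 next. Terf2ip was at 11.81 in control 48 (next 11.36), Pgam5 at 12.13 in control 45 (next 11.33), and Hbs1l at 11.87 in control 144a, below the next lowest at 11.99. All values are log2(value + 1).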

How the results depend on the processing

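The choice of loci depended on the scale. Of the 60 loci, 35 were chosen again with a pseudocount of 10, 38 with values scaled to equal totals, 30 when a mean of 2 sufficed and 28 when a mean of 4 was needed, and 42 to 56 without 1 TRAP library. A total of 15 were chosen again without any single library and under all 4 other scalings and pseudocounts. For the same 60 loci (settings added after the data were seen), the median A was 0.867 with a pseudocount of 10, 1.62 with equal totals and 1.19 to 1.30 without 1 library. The median B was 0.707 with a pseudocount of 10, 2.23 with 0.1, 1.05 with equal totals, 1.38 after quantile normalization and 1.45 to 1.95 without 1 library. Equal totals moved the median of all 6922 loci from 0.04 to 0.44 for A and from 0.27 to -0.13 for B, and the members' excess over it was 1.18 for A and 1.17 for B under both scalings.

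For rapamycin, 5 members were called with a pseudocount of 0.1, 2 of the 10 tested when a mean of 5 was needed, and 5 to 13 without 1 library (5 without untreated control 1, 13 without rapamycin-treated control 2 or 3). Calls over all loci rose from 90 to 183 after quantile normalization and to 355 without a filter, fell to 59 with a pseudocount of 0.1 and to 27 of 2685 at a mean of 5, and their share of lower calls also shifted with scaling, from 66 of 90 to 124 of 126 with equal totals and 84 of 183 after quantile normalization. With the replicate number as a replicate block 6 members and 74 loci were called. The numbers did not pair the libraries, since none of 18 correlations of deviations exceeded 0.1 (-0.09 to 0.09).

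In sorted cells 1 or 2 members were called without 1 library, and 0 with library code as a term or within the code that holds both genotypes, where the members' median was 0.051 in place of -0.23 (-0.28 to -0.18 without 1 library). Calls over all loci fell from 242 to 33 with the term and to 100 within that code, were 702 without a filter and 166 with libraries 144a and 144b averaged, and ranged from 104 to 530 without 1 library. Of 592 recomputed sorted differences of described genes, 574 kept their call or moved by less than the spread, 17 moved further, all with library code as a term, and 1 (Ankrd45) lost its call. None that was called changed sign. The causes of these shifts were not tested. At 11.3 to 26.0 fragments for the median member in most TRAP libraries, depth limits the precision of single values.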
